A study of Mus musculus with 3 samples.

Results

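The pacemaker and sinus node genes described here are Hcn2, Hcn4, Isl1, Shox2, Popdc2, Bves and Cntn2. TBX5 peaks were assigned to them when the summit, the position of highest signal in a peak, lay in the RefSeq body of the gene or within 50 kb of it on either side. By this rule 14 of the 12436 peaks belonged to 5 of the 7 genes, and no peak was counted for more than 1 of them. Binding of TBX5, a T-box transcription factor, was measured by chromatin immunoprecipitation and sequencing of whole hearts from embryos of CD-1, an outbred mouse stock, at E14.5. There were 2 biological replicates precipitated with 5 µg of anti-TBX5 antibody and 1 input sample of the same tissue that was not precipitated, and the labels name no treatment or allele. Peaks were called on the pooled ChIP samples, so a spread between replicates could not be computed and no test between samples was possible. Node, conduction and working heart cells were not separated, and the peaks do not show in which cells TBX5 was bound.

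The sinus node starts each heartbeat, and its cells depolarise spontaneously between beats. HCN channels, encoded by Hcn4 and Hcn2 among others, carry the inward "funny" current that opens on hyperpolarisation and is enhanced by cyclic AMP. Isl1 and Shox2 encode homeodomain transcription factors needed for sinus node development. Popdc2 and Bves encode Popeye domain proteins, which bind cyclic AMP at the membrane and whose loss in mice slows the sinus node under stress. Cntn2 encodes contactin-2, a cell adhesion protein used as a marker of the ventricular conduction system. TBX3, a related T-box factor that can bind similar DNA, is a repressor of the working-muscle programme in the node and conduction system.

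Hcn4 and Popdc2 carried the strong binding of the group, whereas Isl1 and Shox2 had no summit. Hcn4 had 6 summits, Hcn2 had 3, Popdc2 and Bves had 2 each, and Cntn2 had 1. Of all 21631 protein-coding genes on the autosomes and the X chromosome, 49.8% had at least 1 summit within 50 kb. The 5 of 7 genes with a summit are to be read against that share. Within 10 kb of the body 3 of the 7 genes had a summit (29.9% of all genes), namely Hcn4, Popdc2 and Bves. Only Hcn4 of the 7 had a summit inside its body (19.2% of all genes). Of the 14 summits, 10 lay inside or nearer to the body of another protein-coding gene, and a window by distance does not show which gene a bound region acts on.

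**Figure D1:**
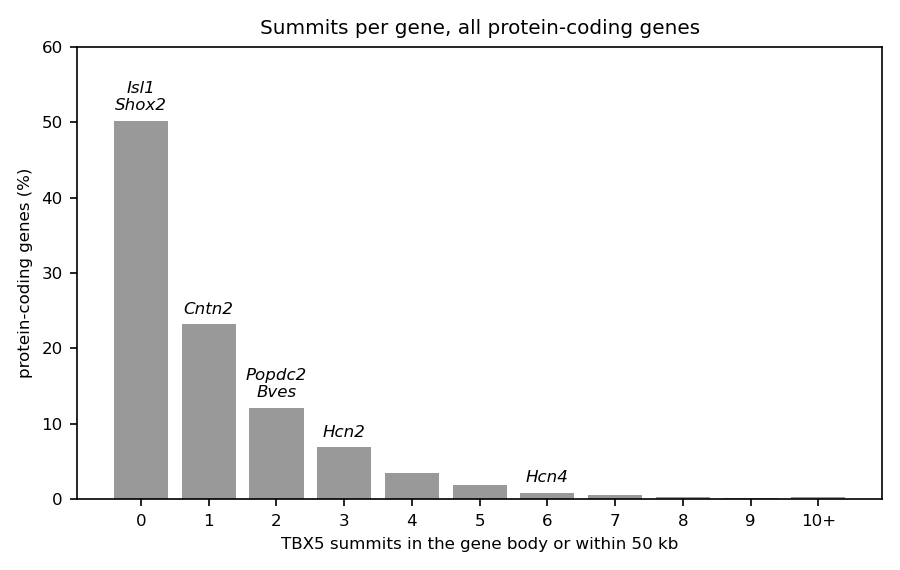
Bars give the percentage of the 21631 protein-coding genes (y axis) by the number of TBX5 summits in the body or within 50 kb (x axis, with 10 or more pooled), and the names mark the 7 genes. Isl1 and Shox2 stand in the class without a summit, which holds 50.2% of genes, and Hcn4 stands at 6.

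The promoter under the Popdc2 peak is shown because it is the sole promoter of the 7 genes that both carried a peak and had an entry in the RefSeq promoter table (build GRCm38.p6, the assembly that mm10 names). Of the 7 genes, 6 had an entry. The promoters of Cdc34, in the Hcn2 window, and Rbbp5, in the Cntn2 window, are shown beside it because peaks counted for Hcn2 and Cntn2 lay on them. Each sequence is the stretch, 5′ to 3′ on the gene's strand, that lies under the TBX5 peak, within 250 bases before the RefSeq start and outside the RefSeq gene body. All 3 are on the plus strand, at chr16:38361940-38362160, chr10:79681945-79682104 and chr1:132477117-132477347. Capitals mark matches to the motifs searched.
Popdc2: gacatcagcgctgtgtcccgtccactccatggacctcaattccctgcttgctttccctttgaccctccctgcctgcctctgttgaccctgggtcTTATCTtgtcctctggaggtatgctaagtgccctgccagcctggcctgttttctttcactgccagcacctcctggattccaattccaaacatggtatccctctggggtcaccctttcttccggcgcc
Cdc34: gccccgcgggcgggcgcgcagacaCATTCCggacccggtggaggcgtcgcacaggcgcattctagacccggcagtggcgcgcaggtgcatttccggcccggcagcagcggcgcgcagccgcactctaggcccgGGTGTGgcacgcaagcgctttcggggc
Rbbp5: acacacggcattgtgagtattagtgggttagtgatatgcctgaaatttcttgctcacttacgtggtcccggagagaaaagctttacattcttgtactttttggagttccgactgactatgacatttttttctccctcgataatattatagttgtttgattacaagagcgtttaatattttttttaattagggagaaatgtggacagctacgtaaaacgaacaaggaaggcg

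The letters searched, on both strands of the 250 bases before each start, were AGGTGTGA, GGTGTGA and GGTGTG for T-box factors, AGATAA for GATA factors, GGAATG for TEAD factors, the MEF2 motif and CAGCTG for an E-box. The T-box forms are nested, so a match to a longer one is also a match to the shorter. The Popdc2 promoter held AGATAA on the minus strand, printed as TTATCT at positions 95 to 100 from the 5′ end, and the summit lay at position 163. It also held GGAATG on the minus strand at positions 233 to 238, in the part not printed. No T-box form was found in these Popdc2 bases. The Cdc34 promoter held GGTGTG at positions 134 to 139 and GGAATG on the minus strand at 25 to 30, and the Rbbp5 promoter held none of the motifs. For background, AGATAA occurred in 9.99% of the 32851 promoter entries and in 4.72% of the 1843 that overlapped a TBX5 peak. GGTGTG occurred in 16.3% and 19.2%, and GGAATG in 12.6% and 10.6%. AGGTGTGA occurred in 1.12% and 1.14%, GGTGTGA in 3.33% and 4.07%, the MEF2 motif in 3.20% and 2.33%, and CAGCTG in 13.0% and 12.9%. A match is a description of letters and not a measured binding site.

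The strength of a peak is given as the authors' fold enrichment. That is the pooled ChIP signal at the summit plus 1, divided by its local background plus 1. The number of fragments over the summit, the pileup, and the background were solved from this fold and the authors' p-value. Behind each fold stands an exact 95% Poisson interval, in which the pileup varies and the background does not, and which covers counting error only. The 14 folds ran from 2.85 to 36.6 with a median of 5.68, and all 12436 peaks had a median of 5.67. Above the median of all peaks lay 7 of the 14. A fold of at least 20 was reached by 2 of the 14 peaks (4.07% of all peaks), 1 at Hcn4 and 1 at Popdc2. The authors' −log10 q reached at least 10 in 6 of the 14 (41.5% of all peaks), of which 4 belonged to Hcn4 and 2 to Popdc2.

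**Figure D2:**
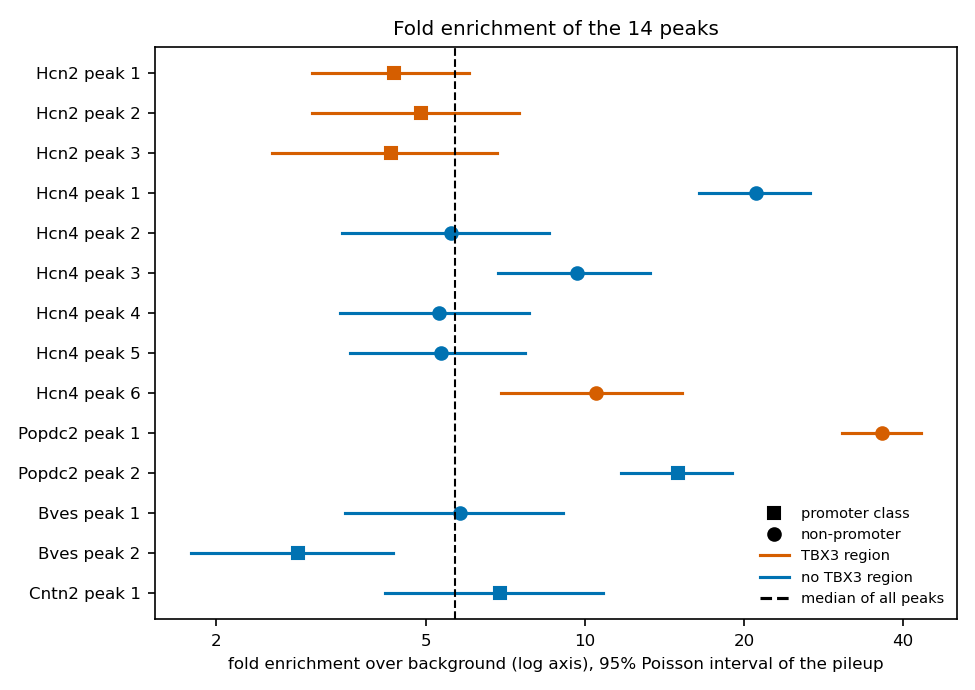
Points give the authors' fold enrichment of the 14 peaks (x axis, log scale), numbered within each gene by rising chromosome position, and lines give the 95% Poisson interval of the pileup. Popdc2 peak 1 at 36.6, Hcn4 peak 1 at 21.1 and Popdc2 peak 2 at 15.0 stand highest, and Bves peak 2 at 2.85 stands lowest.

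Hcn4, the main pacemaker channel gene of the sinus node (RefSeq body chr9:58822949-58863175), was surrounded by summits on both sides. Its 6 summits spanned 87151 bp. As many or more summits within 50 kb were found at 476 protein-coding genes (2.20%). The strongest peak, at chr9:58802784-58803409, lay 19934 bp before the body and 20497 bp upstream of the authors' assigned start. Its fold was 21.1 (16.4 to 26.6) from a pileup of 68 fragments over a background of 2.27, and 446 peaks of the list had a higher fold. A peak at least as high within 50 kb was found for 622 protein-coding genes (2.88%). A weaker peak at chr9:58807753-58807948, with its summit 4848 bp further on, had 5.56-fold enrichment (3.46 to 8.53). The third upstream peak, at chr9:58817642-58818059 and 5043 bp before the body, had 9.67-fold enrichment (6.85 to 13.3). All 3 upstream summits lay inside the body of Rec114, a meiotic recombination gene whose body ends just before that of Hcn4.

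The 2 summits inside the Hcn4 body were of similar height. They lay at chr9:58837228-58837541 and chr9:58847788-58848040, with 5.30-fold (3.44 to 7.84) and 5.35-fold enrichment (3.59 to 7.69). Exons and introns were not distinguished in the gene table used here. Beyond the far end of Hcn4, 26991 bp away and inside the body of Neo1, a receptor gene of the DCC family, the peak at chr9:58889847-58890335 had 10.5-fold enrichment (6.92 to 15.3). It was the sole Hcn4 peak of 6 that overlapped a TBX3 region. Its pileup of 25 fragments was below the 27 of the second peak in the body, and its background of 1.48 was below the 4.24 there, so the order of these peaks by fold and by pileup differed. The interval of the strongest Hcn4 peak did not overlap those of the other 5. None of the 6 belonged to the authors' promoter class, which holds summits within 2000 bp of a transcription start.

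**Figure D3:**
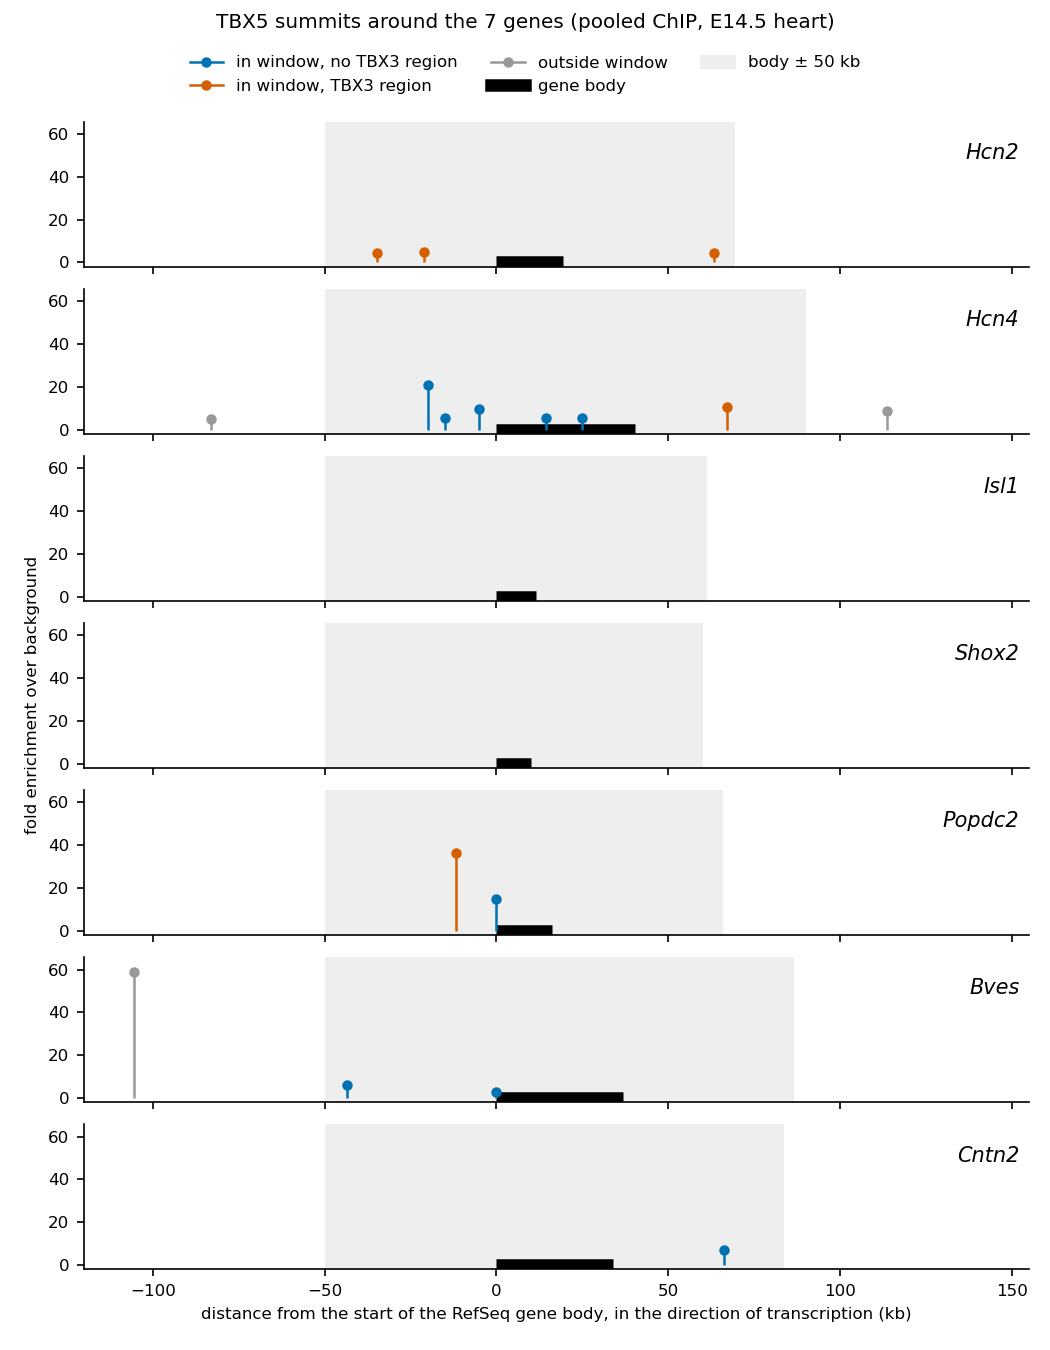
Stems give each TBX5 summit at its distance from the start of the RefSeq gene body in the direction of transcription (x axis, kb) with its fold enrichment as height (y axis), for the 7 genes. Hcn4 has summits before, within and beyond its body, Isl1 and Shox2 have none in the range drawn, and the tallest stem, 58.8-fold near Bves, lies outside the 50 kb window.

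Hcn2, a further pacemaker channel gene (chr10:79716634-79736108), lay among 10 other protein-coding genes that reached into its window, against a median of 3 over all genes. All 3 of its summits belonged to the promoter class and lay at other genes. Their folds were below the median of all peaks, 5.67, and near the promoter-class median of 4.40. The peak at chr10:79681762-79682104, 190 bp upstream of the start of Cdc34, a ubiquitin-conjugating enzyme gene, had 4.34-fold enrichment (3.04 to 6.02). The peak at chr10:79695414-79695595, just past the end of the protease gene Gzmm, had 4.89-fold enrichment (3.04 to 7.50). The peak at chr10:79780012-79780186, in the body of Fstl3, which encodes a follistatin-like inhibitor of activin, had 4.29-fold enrichment (2.56 to 6.80). These intervals overlapped each other. The nearest summit to the Hcn2 body was 21123 bp away. The Cdc34 peak had the higher pileup, 34 fragments against 19 and 16, over a background of 7.06 against 3.09 and 2.97.

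The Popeye domain genes Popdc2 and Bves each had a peak directly at the start. At Popdc2 (chr16:38362161-38378216) the promoter peak at chr16:38361884-38362275, 88 bp upstream of the start, had 15.0-fold enrichment (11.7 to 19.0) from 67 fragments. It ranked 62nd by fold of the 3055 promoter-class peaks. At Bves (chr10:45335735-45372484) the promoter peak at chr10:45335378-45335726, 93 bp upstream of the assigned start, had 2.85-fold enrichment (1.80 to 4.33) from 20 fragments. Only 109 promoter-class peaks (3.57%) had a lower fold. The intervals of the 2 promoter peaks did not overlap. The background was higher at the Bves promoter, 6.36 against 3.53 at Popdc2. For comparison, 12.6% of the 17274 protein-coding genes with a promoter entry had a summit within 2000 bp of a start. Of the 6 genes with an entry, Popdc2 alone did.

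Popdc2 also had the strongest peak of the group. It lay at chr16:38350311-38350801, 11608 bp before the Popdc2 body and inside the body of Cox17, a copper chaperone gene for cytochrome c oxidase. Its fold was 36.6 (30.7 to 43.2) from a pileup of 135 fragments over a background of 2.72, and 114 peaks of the list had a higher fold. A peak at least as high within 50 kb was found for 158 protein-coding genes (0.730%). The start that the authors assigned was 3554 bp from the summit. This peak overlapped a TBX3 region, whereas the Popdc2 promoter peak did not. The second Bves peak, at chr10:45292194-45292368, lay 43453 bp before the Bves body, inside the body of Popdc3, the third Popeye gene, which is the neighbour of Bves. Its fold was 5.80 (3.52 to 9.10).

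**Figure D4:**
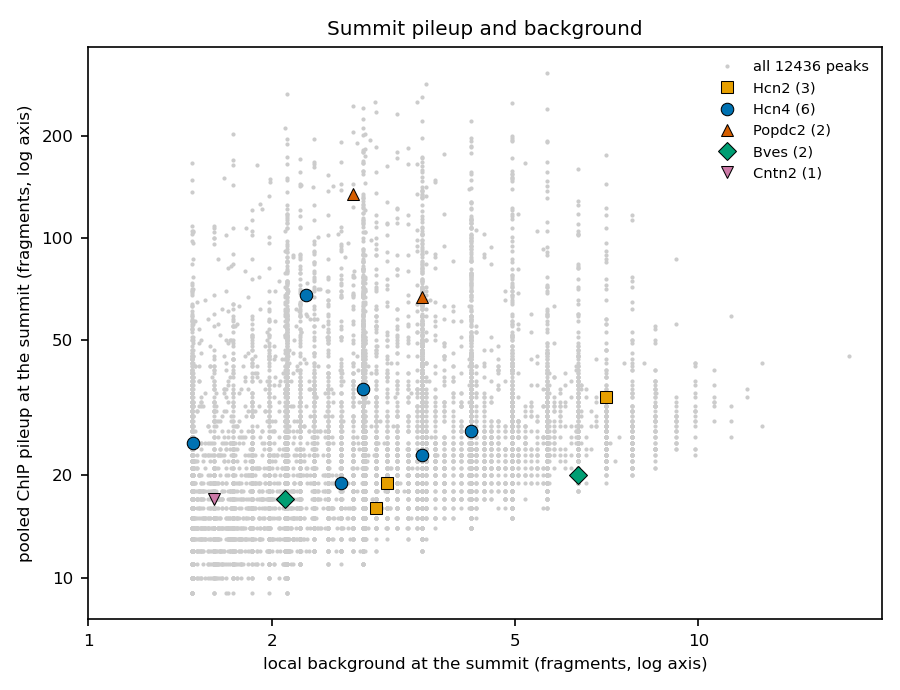
Each point is a peak, with the local background (x axis) and the pooled ChIP pileup (y axis) at its summit in fragments, both on log axes, for all 12436 peaks in grey and the 14 peaks in colour. The 2 Popdc2 peaks, at 135 and 67 fragments, and the strongest Hcn4 peak, at 68, stand above the other 11.

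The transcription factor genes Isl1 (chr13:116298270-116309688) and Shox2 (chr3:66971723-66981771) had no summit in their windows. They shared this with 50.2% of protein-coding genes. The nearest summit to Isl1 was 511043 bp away, with 5.64-fold enrichment (3.19 to 9.36), in a non-promoter peak that the authors classed as other. The nearest to Shox2 was 396641 bp away, an active non-promoter peak of 4.17-fold (2.31 to 7.04). A missing summit says only that no peak there passed the authors' threshold. Cntn2 (chr1:132509425-132543251) had 1 summit, 32295 bp past its end. That peak, at chr1:132476961-132477369, lay 237 bp upstream of the start of Rbbp5, which encodes a subunit of histone H3K4 methyltransferase complexes. The start of 6030442K20Rik, on the opposite strand, was nearer, 66 bp from the same summit. Its fold was 6.90 (4.18 to 10.8) from 17 fragments.

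Close to the limit of the window, the farthest summits inside lay 43988 bp from Hcn2 (4.29-fold) and 43453 bp from Bves (5.80-fold). Just outside, Hcn4 had summits at 73502 bp (8.86-fold, poised) and 82951 bp (5.08-fold, promoter class). The nearest summit outside the Bves window, 105570 bp from the body at chr10:45229855-45230459, was an active non-promoter peak of 58.8-fold (51.4 to 67.0) that overlapped a TBX3 region and ranked 16th of the list by fold. Those nearest outside the other windows lay 143573 bp from Popdc2, 197956 bp from Cntn2 and 405354 bp from Hcn2.

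The deposited table gives for each peak its overlap with regions of 6 histone marks from ENCODE and with TBX3 regions. All 14 peaks were classed as active by the authors (73.5% of all peaks). H3K27ac, a mark of active enhancers and promoters, covered 13 of the 14 (73.5% of all peaks), and the exception was the Fstl3 peak in the Hcn2 window. H3K4me1, which marks enhancers, covered 13 of 14 (72.3%), all but the Rbbp5 promoter peak. H3K9ac covered 9 of 14 (45.99%) and H3K4me3, a mark of promoters, 6 of 14 (31.8%). The repressive marks H3K27me3 (1.63% of all peaks) and H3K9me3 (0.241%) covered 0 of the 14. Both marks are rare in the whole list, so this count does not set the 14 peaks apart.

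Marks were also counted apart for promoter-class and other peaks. The promoter class held 6 of the 14 peaks (24.6% of all peaks), and 5 of these 6 had H3K4me3 (90.9% of promoter-class peaks), all but the peak past Gzmm. H3K27ac, H3K9ac and H3K4me1 were each on 5 of the 6 as well, against 93.9%, 92.96% and 39.7% of promoter-class peaks. Among the 8 other peaks all had H3K27ac (66.9% of non-promoter peaks) and H3K4me1 (82.9%). H3K9ac was on 4 of these 8 (30.7%), and H3K4me3 on 1, the strong peak upstream of Popdc2 (12.6%). At Hcn4 the 3 peaks nearest to or inside the gene had H3K9ac, and the other 3, including the strongest, did not. The strongest Hcn4 peak had H3K27ac in 1 of the 2 region files for that mark, whereas each of the other 5 had it in both.

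TBX3 regions overlapped 5 of the 14 peaks, or 35.7%. The share in all peaks was 27.03%, and the difference was not tested. The overlap was uneven among the genes. Of the 6 promoter-class peaks 3 overlapped a TBX3 region (44.98% of all promoter-class peaks). These were the 3 peaks counted for Hcn2, which lay at Cdc34, Gzmm and Fstl3. Of the 8 non-promoter peaks 2 did (21.2% of all non-promoter peaks), the strong peak upstream of Popdc2 and the Hcn4 peak inside Neo1. The 5 peaks with a TBX3 region had a median fold of 4.89 and the other 9 one of 5.80, and in the whole list the medians were 5.13 and 5.89. From which tissue and stage the TBX3 and histone mark regions came is not stated in the labels or headers.

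**Figure D5:**
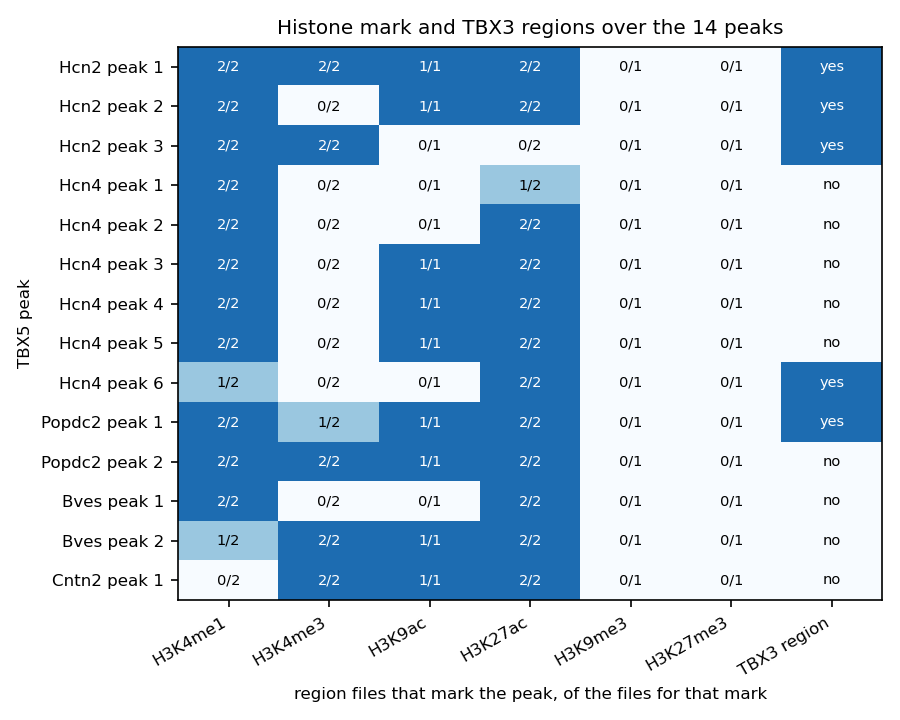
Cells give, for each of the 14 peaks (rows, numbered as in the plot of folds), how many of the region files for a histone mark (columns) overlap it, and whether a TBX3 region does. H3K27ac and H3K4me1 are each missing from 1 peak, and the columns of H3K9me3 and H3K27me3 are empty.

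A list of 31 other genes of the sinus node and conduction system, chosen with earlier results of these data known, was set beside the 7. Of these 31 genes 29 had a summit within 50 kb, against 49.8% of all genes, and 25 within 10 kb, against 29.9%. Because earlier results were known when the list was chosen, these contrasts with all genes cannot be read as a property of its genes. A window also grows with the length of the gene body, and the shares were not adjusted for length. The median number of summits within 50 kb was 3 in the list, 2 in the 7 genes and 0 over all protein-coding genes. The highest fold per gene had a median of 13.8 in the list, against 6.23 over all genes with a summit. A highest fold tends to rise with the number of summits, and these medians were not adjusted for that number. The list shared 2 of its 99 peaks with the 7 genes, namely the peak in the Popdc3 body and the Bves promoter peak. Its peaks had a median fold of 6.85, against 5.67 for all peaks. Of them 74 (74.7%) were active and 24 (24.2%) overlapped TBX3 regions, against 73.5% and 27.03% of all peaks.

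In that list high folds were found at Gja5, Cpne5 and Ryr2. Gja5, the gap junction gene of atria and conduction system, reached 56.9-fold (50.2 to 64.4). Cpne5, a calcium-dependent membrane-binding protein gene, reached 47.9-fold (41.2 to 55.3) at 19451 bp from its body. Ryr2, the calcium release channel, had 36.2-fold enrichment (30.9 to 42.2) at 26754 bp from its body. The highest fold at Hcn3, a further gene of the HCN family, was 4.20 (2.67 to 6.32) at 22924 bp from its body. Nr2f2, an atrial identity factor, had no summit in the window, and the nearest lay 84813 bp away.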

How the data were processed

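TBX5 ChIP-seq of E14.5 CD-1 mouse hearts gave 3 samples, grouped by their labels as 2 ChIP replicates and 1 input. Per the labels' protocols, fragments of 200 to 650 bp were selected and 50 bases were read from a single end. The submitters' processing notes list the build mm10 and the tools Bowtie2, SAMtools, MACS2 and ChIPseeker, without versions or settings. Peaks were called on pooled samples, per the file headers and names. The deposited fold is the authors' ratio of pileup to local background at the summit, (pileup + 1)/(background + 1). The deposited −log10 p and −log10 q values belong to that call, and the score the authors deposited equals −log10 q times 10, cut to a whole number. These values were used only within this list.

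Read depth is unknown for each sample. A whole-number pileup solved from fold and −log10 p met every peak's p within 0.000242, and the method was tested on simulated data (500 simulated peaks, 100% recovered). Intervals are exact 95% Poisson intervals of the pileup and cover counting error only. Gene bodies were taken from RefSeq GRCm38.p6, without strand or exons, for 21631 protein-coding genes, and positions are 1-based. A mark with more than 1 region file counted if either file marked the peak. All 7 genes, all 14 peaks, the genes nearest to these and, of the list, the 4 with the highest fold and those without a summit were to be named; some of these are not reported here. The members and lists were chosen with earlier results of these data known. Counts and medians are given beside those of all peaks or genes, with no test, since there is 1 pooled list. Other windows, stricter peak thresholds, overlap of whole peaks and the nearest gene were tried as alternatives. Tools were Python 3.11.15 with scipy 1.17.1, numpy 2.4.6 and pandas 2.3.3, and figures were drawn with matplotlib 3.10.9.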

Additional observations from a re-analysis of the deposited data

How the results depend on the processing

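Of 68 recomputed values, 43 stayed within 1.5 times (counts) or within the 95% interval (other values) and 25 moved. No direction was tested. For shares this interval was the exact Clopper-Pearson interval, which treats peaks as independent although they cluster by gene. It is wide, and for TBX3 regions it ran from 12.8% to 64.9%. With 100 kb windows (16 summits) and with any overlap of the whole peak (14 summits) every recomputed value stayed. The whole-peak overlap returned the same 14 peaks, and the 100 kb windows kept all of them. These 2 settings therefore say little about how stable the values are. Without extension of the gene body 2 summits at 1 gene remained, with TBX3 regions at 0%, the promoter class at 0% and H3K27ac at 100%, and the highest Hcn4 fold was 5.35. With 10 kb there were 5 summits at 3 genes, with TBX3 at 0% and H3K27ac at 100%, and the highest folds were 9.67 at Hcn4, 15.0 at Popdc2 and 2.85 at Bves. With only summits whose nearest gene was the member there were 4 at 3 genes, with TBX3 at 0% and H3K27ac at 100%, and the highest folds were 5.35 at Hcn4, 15.0 at Popdc2 and 2.85 at Bves. With −log10 q of at least 10 there were 6 summits at 2 genes, with the promoter class at 16.7% and H3K27ac at 100%. With a fold of at least 5 H3K27ac was at 100%. These alternatives hold fewer peaks by construction, and genes left without a peak have no highest fold. Leaving out a replicate was not run, because the files hold 1 pooled call. No paired analysis was possible because the values come from 1 pooled call and no test.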
